A study of Mus musculus with 22 samples.

Results

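Hepatocytes make most of the complement, coagulation and carrier proteins of blood plasma, and 35 genes for such proteins were followed here in ATAC-seq libraries, which measure open chromatin. The genes were chosen by name, but with earlier results of these data known. All peaks assigned to one of them and lying at most 50 kb from its transcription start were taken, and their counts were summed per gene. That gave 240 of the 68827 peaks and 35 of the 15686 genes with a peak within that distance. A gene's sum is the accessibility around it and not its expression.

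The libraries came from nuclei pulled down from livers of male HEP-INTACT mice, a line made for pulling down hepatocyte nuclei by a tag. What drives the tag is not stated in the labels. The FPC Advanced (3 mice) and FPC Mild (4 mice) groups had 20 weeks of the FPC diet, and FPC Control mice (4) a low fat diet for the same 20 weeks. The CDAHFD Advanced (3) and CDAHFD Mild (4) groups had 7 weeks of CDAHFD, and CDAHFD Control mice (4) the low fat diet for 7 weeks. Both diets cause steatohepatitis; mice were put in the Mild or Advanced group by liver histology, with fibrosis marking the Advanced group. Diet and its duration cannot be told apart. Each of the 22 libraries was 1 mouse.

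Complement is a cascade of proteases: recognition by lectins and their serine proteases, or by other routes, leads to cleavage of C3 and C5 and ends with a pore of terminal components, while soluble inhibitors hold it in check. Coagulation runs through vitamin K-dependent proteases and their cofactors to thrombin, which turns fibrinogen into fibrin; the contact system can start it, and antithrombin, protein C and plasmin limit it or remove the clot. Most of these proteins are secreted by hepatocytes, and carriers such as transthyretin and transferrin share that source.

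Library totals were 5971488 to 7135523.5 counts in FPC Advanced, 5018141.5 to 5964888 in FPC Mild and 3785066 to 6039070.5 in FPC Control livers, and 6076212.5 to 9236873 in CDAHFD Advanced, 6147893.5 to 9328963 in CDAHFD Mild and 5952279.5 to 8384986 in CDAHFD Control livers. Within a group, log2 CPM of the gene sums correlated across genes at 0.979 to 0.992, which describes the libraries, since genes are not independent. The 8 hepatocyte markers all had peaks, with a summed level of 1320 to 1670 CPM (counts scaled to a common library total) in FPC Advanced against 1790 to 1980 CPM in FPC Control livers, and 1530 to 1630 CPM in CDAHFD Advanced against 1730 to 2030 CPM in CDAHFD Control livers. Of them, 6 in FPC and 5 in CDAHFD Advanced livers were lower and none was higher. Of all genes 30.5% and 30% were called lower. Of 7 cholangiocyte markers, 6 had a peak (all but Cftr) and summed to 334 to 426 CPM in FPC Advanced against 196 to 220 CPM in FPC Control livers, and to 288 to 314 CPM in CDAHFD Advanced against 202 to 250 CPM in CDAHFD Control livers. Of these markers 6 were higher in FPC and 5 in CDAHFD Advanced livers, against 30.7% and 28.5% of all genes. Only 2 of 8 stellate cell markers had a peak, Col1a1, higher in both diets, and Reln, called in neither, which summed to 47.1 to 65.3 CPM in FPC Advanced against 26.9 to 43.8 CPM in FPC Control livers and to 44.8 to 57.4 CPM in CDAHFD Advanced against 37.6 to 50.8 CPM in CDAHFD Control livers. Macrophage markers (4 of 8 with a peak, none at Clec4f, Cd68, Marco and Timd4) summed to 49 to 49.3 CPM in FPC Advanced against 59.2 to 71.2 CPM in FPC Control livers, and to 49.8 to 54.8 CPM in CDAHFD Advanced against 63.3 to 73.4 CPM in CDAHFD Control livers. Single macrophage markers went both ways: Ptprc and Itgam were lower in both diets, Csf1r was higher in both (0.68 in FPC and 0.98 in CDAHFD) and Adgre1 higher in FPC. The sums of endothelial markers (6 of 8, none at Clec4g and Tek; 2 lower in FPC, 3 in CDAHFD, none higher) and of lymphocyte markers (2 of 8, Cd4 and Cd8a) were lower in all Advanced than in all Control libraries of both diets. The endothelial share called lower was 33.3% in FPC, near the 30.5% of all genes, and 50% in CDAHFD, against 30%. Cd4 carried the lymphocyte sum (-1.19 in FPC and -1.48 in CDAHFD), while Cd8a was at 0.23 in FPC (adjusted p = 0.383) and was higher in CDAHFD (0.56, adjusted p = 0.0198). The part of these shifts and of depth in the results for the plasma protein genes was not tested, and in pulled-down nuclei fewer nuclei of a type and less accessibility per nucleus cannot be told apart.

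The stretches before the start of 7 genes are shown first. Those of F5, F7, F10, Klkb1, C8b and F11 hold a peak that fell in at least 1 diet, as described below. F11 was chosen after its values were seen, and likewise C3, for contrast, since no peak in its stretch was called lower. Each stretch is the 250 bases before the start from RefSeq (GRCm38.p6, the same assembly as mm10), written 5′ to 3′ on the gene's strand. Capitals mark bases inside a 200 bp peak, to within 1 base at its edges, since the deposited starts may count from 0 or 1.
F5, chr1:164151585-164151834, plus strand: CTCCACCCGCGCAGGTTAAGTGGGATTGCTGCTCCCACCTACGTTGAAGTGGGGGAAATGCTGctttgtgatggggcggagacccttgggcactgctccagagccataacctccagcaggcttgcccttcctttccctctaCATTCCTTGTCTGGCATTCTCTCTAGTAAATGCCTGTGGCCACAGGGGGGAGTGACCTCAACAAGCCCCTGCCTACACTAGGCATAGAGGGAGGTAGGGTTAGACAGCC
F7, chr8:13025784-13026033, plus strand: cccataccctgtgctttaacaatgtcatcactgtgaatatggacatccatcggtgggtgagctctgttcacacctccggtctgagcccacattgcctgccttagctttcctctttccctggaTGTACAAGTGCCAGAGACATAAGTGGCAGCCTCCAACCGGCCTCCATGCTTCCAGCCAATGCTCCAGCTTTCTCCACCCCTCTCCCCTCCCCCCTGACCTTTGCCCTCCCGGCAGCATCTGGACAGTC
F10, chr8:13037058-13037307, plus strand: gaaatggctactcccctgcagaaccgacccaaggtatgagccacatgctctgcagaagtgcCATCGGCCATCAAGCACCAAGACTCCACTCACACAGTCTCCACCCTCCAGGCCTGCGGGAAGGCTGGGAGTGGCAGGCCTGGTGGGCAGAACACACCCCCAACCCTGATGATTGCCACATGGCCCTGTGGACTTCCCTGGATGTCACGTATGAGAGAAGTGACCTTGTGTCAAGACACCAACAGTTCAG
F11, chr8:45262032-45262281, minus strand: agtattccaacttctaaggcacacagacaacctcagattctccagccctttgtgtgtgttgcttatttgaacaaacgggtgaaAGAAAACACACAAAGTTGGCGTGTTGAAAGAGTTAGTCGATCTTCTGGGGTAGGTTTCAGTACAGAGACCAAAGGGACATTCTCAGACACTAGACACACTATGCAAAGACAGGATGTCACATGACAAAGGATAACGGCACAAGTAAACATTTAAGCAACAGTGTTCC
Klkb1, chr8:45294836-45295085, minus strand: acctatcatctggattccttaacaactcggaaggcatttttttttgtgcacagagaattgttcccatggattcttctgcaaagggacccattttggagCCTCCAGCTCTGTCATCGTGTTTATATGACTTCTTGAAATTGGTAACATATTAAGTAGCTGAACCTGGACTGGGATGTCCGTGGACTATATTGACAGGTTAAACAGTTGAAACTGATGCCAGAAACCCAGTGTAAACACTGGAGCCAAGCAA
C8b, chr4:104766067-104766316, plus strand: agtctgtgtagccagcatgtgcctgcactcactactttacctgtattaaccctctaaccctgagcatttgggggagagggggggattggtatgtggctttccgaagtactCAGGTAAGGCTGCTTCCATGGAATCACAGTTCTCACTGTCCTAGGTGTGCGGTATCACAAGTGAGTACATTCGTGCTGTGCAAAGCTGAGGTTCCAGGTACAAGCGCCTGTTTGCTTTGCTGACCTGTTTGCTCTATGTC
C3, chr17:57228137-57228386, minus strand: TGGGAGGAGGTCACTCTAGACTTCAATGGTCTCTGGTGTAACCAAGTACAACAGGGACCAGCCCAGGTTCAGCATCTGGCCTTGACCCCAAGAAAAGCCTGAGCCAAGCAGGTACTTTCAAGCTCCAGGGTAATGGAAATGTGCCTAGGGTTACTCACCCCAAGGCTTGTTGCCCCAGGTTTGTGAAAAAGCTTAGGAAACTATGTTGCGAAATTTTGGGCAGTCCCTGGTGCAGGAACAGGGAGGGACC
In F5, 63 of the capital bases belong to the peak centred at -288 bp from the start and 109 to the peak at -9 bp. RefSeq promoters, 250 bases before to 50 after the start, were matched for 24 of the 35 genes and searched on both strands. The C/EBP motif TTGCNNAA was in 8 of these 24 (Ahsg, C3, C9, F11, Fga, Fgb, Klkb1 and Serpinc1) and in 10.8% of all 32851 promoters. In the stretches shown it begins 45 bases before the start of C3 and 17 before that of F11, both in capitals, and 177 before that of Klkb1, outside its peak. The AP-1 motif TGANTCA was in 2 of the 24 (F2 and Fgb) and in 7.81% of all promoters, and the HNF4 motif CAAAGTCCA in none of the 24 and in 0.475% of all. These are matches of letters and not bound sites.

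In both diets the accessibility around plasma protein genes was lower in Advanced than in Control livers. In the main fit of the 50 kb sums no gene of the 35 was called higher. In FPC Advanced livers 29 of 35 genes fell and none rose, against 30.5% of all genes called lower and 30.7% called higher in the same comparison. The median log2 change of the 35 was -0.47, beside 0.01 over all genes. In CDAHFD Advanced livers 21 fell and none rose, against 30% lower and 28.5% higher over all genes, with medians of -0.26 and -0.01. A call is an adjusted p under 0.05 in edgeR's quasi-likelihood test, with Benjamini-Hochberg adjustment over all genes. None was higher at an unadjusted p under 0.05 in either comparison, and DESeq2 called none higher either. In CDAHFD, however, C3 was called higher with cyclic loess scaling, with scaling on all peaks and with only the libraries of the diet. C3 was also called higher without CDAHFD Control replicate 2. The genes are more accessible than most: their median level in Control livers was 111 CPM, beside 43.2 CPM over all genes, and 33 of 35 lay above that value. Among all genes above it, 40.8% were called lower in FPC and 36.8% in CDAHFD Advanced livers. When libraries were scaled on all peaks rather than on gene sums, 21 of the 35 in FPC and 16 in CDAHFD were called lower; that scaling moved the median of all genes to 0.10 in FPC and 0.05 in CDAHFD, and the share of all calls that were higher to 62.5% and 58.1%, beside 50.2% and 48.7%. The same 21 genes were lower in both diets, which have separate controls, against 23.1% of all genes, and 8 (Masp2, Mbl2, Hc, C6, F12, Kng1, Serpind1 and Ahsg) were called in FPC alone. The remaining 6 (C2, C3, Cfb, C9, Proc and Trf) were called in neither. Under all 19 other settings and left-out libraries that were run, 19 of the 29 falls in FPC and 15 of the 21 in CDAHFD kept their call wherever the gene was measured; the others are named below. The setting without a filter, counted among the 19, repeats the main fit, since the filter removed no gene.

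**Figure D1:**
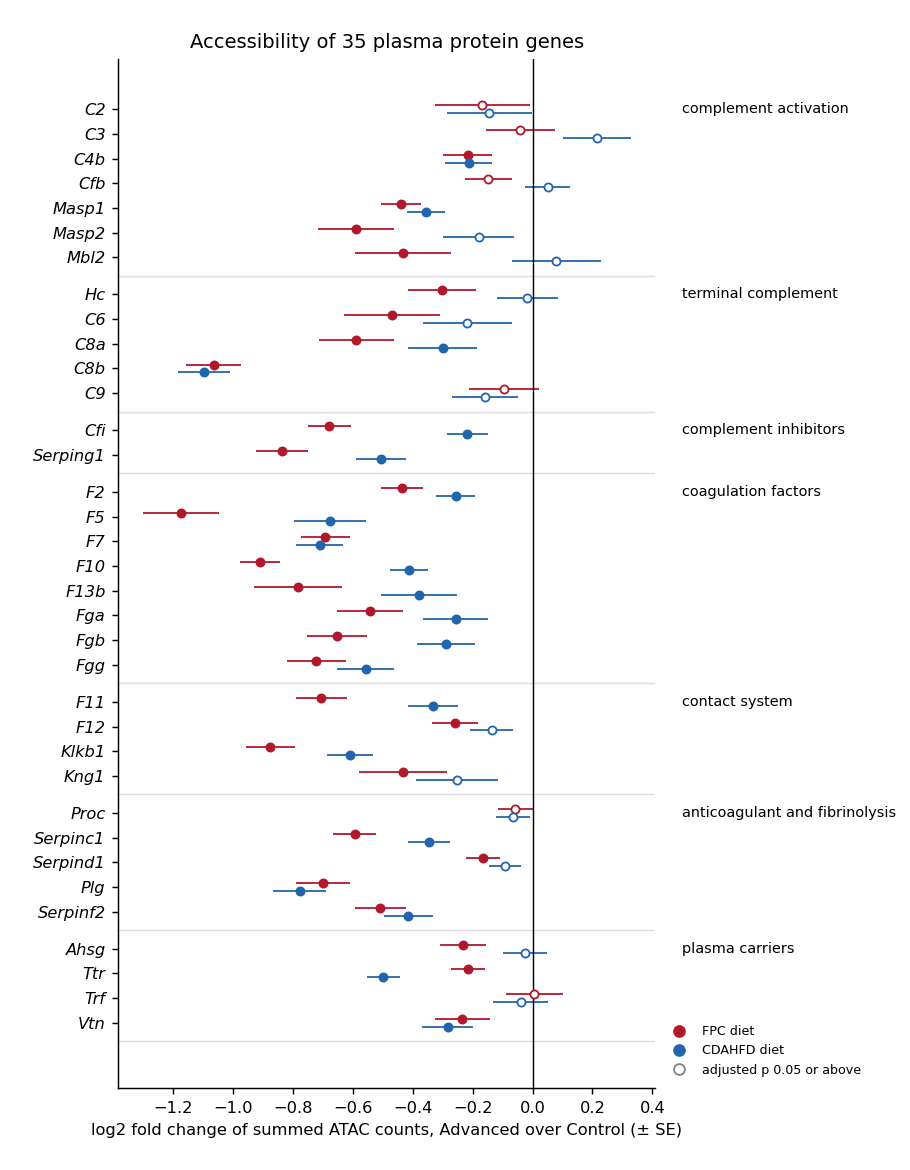
Log2 fold change of the counts summed per gene, Advanced over Control, for the 35 genes grouped by role, with the FPC diet in red and CDAHFD in blue; bars are standard errors, and open points have an adjusted p of 0.05 or above. All 8 coagulation factors lie left of zero with filled points in both diets, while the activators of complement have the median nearest to zero.

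All 8 coagulation factor genes fell in both diets, by 0.44 to 1.17 on the log2 scale in FPC and by 0.26 to 0.71 in CDAHFD Advanced livers. Of all genes 23.1% were called lower in both. F5, the cofactor of factor X in prothrombinase, had the largest fall of the 35 in FPC. It had 26.7, 23.8 and 28.9 CPM in FPC Advanced livers, against 55.6, 46.6, 73.2 and 60 CPM in FPC Control livers. In CDAHFD Advanced livers it had 32.1, 33 and 26.9 CPM, against 54.5, 53.9, 46.9 and 40.7 CPM in CDAHFD Control livers. The groups did not overlap in either diet, and the log2 change was -1.17 ± 0.127 (SE, adjusted p = 3.75e-08) in FPC and -0.68 ± 0.12 (adjusted p = 3.57e-05) in CDAHFD. Such separation is given below also for F10, Klkb1, Plg and C8b. These genes were picked for large called falls, and the share of all genes separated in this way was not computed.

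F10 encodes factor X, where the intrinsic and extrinsic routes meet. It had 113, 90.8 and 106 CPM in FPC Advanced livers, against 186, 195, 199 and 194 CPM in FPC Control livers. It had 136, 131 and 139 CPM in CDAHFD Advanced livers, against 190, 173, 180 and 179 CPM in CDAHFD Control livers. Every Advanced library lay below every Control library of its diet, with a log2 change of -0.91 ± 0.066 (SE, adjusted p = 6.82e-11) in FPC and -0.41 ± 0.063 (adjusted p = 5.21e-06) in CDAHFD. F7, the gene for the protease that tissue factor activates, had 58.2, 48.8 and 61.9 CPM in FPC Advanced livers, against 94.8, 85.3, 97.8 and 83.3 CPM in FPC Control livers. In CDAHFD Advanced livers it had 63.2, 54.4 and 55.9 CPM, against 100, 96.3, 91.7 and 91.7 CPM in CDAHFD Control livers. Its fall was of like size in both diets, -0.69 ± 0.083 (SE, adjusted p = 1.67e-07) in FPC and -0.71 ± 0.078 (adjusted p = 4.37e-08) in CDAHFD, and the difference between them, 0.02 ± 0.114 (adjusted p = 0.95), leaves room for one of either sign.

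The other 5 genes of the group are prothrombin (F2), the carrier subunit of the fibrin-crosslinking factor XIII (F13b) and the 3 fibrinogen chains. F2 fell by 0.44 and 0.26 and F13b by 0.78 and 0.38 in FPC and CDAHFD. The fibrinogen genes Fga, Fgb and Fgg fell by 0.54, 0.65 and 0.72 in FPC and by 0.26, 0.29 and 0.56 in CDAHFD Advanced livers. The 4 FPC Control libraries split for them: Fgb had 156, 142 and 165 CPM in FPC Advanced livers, against 258, 214, 297 and 193 CPM in FPC Control livers. Replicates 1 and 3 were the highest of these also for Fga and Fgg. The split was not particular to fibrinogen: it held for C3, Masp2, C6, C8a and Kng1 among others, but not for F10 or Serpinc1. The call for Fga in CDAHFD (adjusted p = 0.0444), where the groups overlap, is lost with DESeq2 and with each of the 3 other scalings tried (median-ratio, cyclic loess and on all peaks), with the stricter filter, no limit on distance and rounding after summing, and without CDAHFD Advanced replicate 2 or 3 or Control replicate 2 or 3. Fgb in CDAHFD loses its call with cyclic loess scaling, scaling on all peaks, promoter peaks alone and without CDAHFD Control replicate 3, and F13b in CDAHFD with only the libraries of the diet and without CDAHFD Advanced replicate 2 or 3. Fgb was given by library for the spread of its Control values, after these were seen.

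The contact system genes fell in 4 of 4 cases in FPC and in 2 of 4 in CDAHFD, against 30.5% and 30% of all genes. Klkb1 encodes plasma prekallikrein. It had 79.8, 66.9 and 74.9 CPM in FPC Advanced livers, against 135, 130, 141 and 133 CPM in FPC Control livers. It had 92.8, 73.1 and 95.3 CPM in CDAHFD Advanced livers, against 132, 138, 130 and 134 CPM in CDAHFD Control livers. All Advanced libraries lay below all Control libraries, with changes of -0.88 ± 0.081 (SE, adjusted p = 3.28e-09) in FPC and -0.61 ± 0.077 (adjusted p = 3.24e-07) in CDAHFD. F11, the neighbour of Klkb1 on chromosome 8 and the gene for factor XI, fell by 0.71 in FPC and 0.33 in CDAHFD. F12 (factor XII) and Kng1 (high molecular weight kininogen) fell by 0.26 and 0.43 in FPC; their CDAHFD values were -0.14 and -0.25, with adjusted p = 0.103 and 0.118. The F12 call in FPC is lost with scaling on all peaks, and that of Kng1 without FPC Control replicate 1 or 3.

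Of the 5 anticoagulant and fibrinolysis genes, 4 fell in FPC and 3 in CDAHFD, against 30.5% and 30% of all genes. Plg encodes plasminogen. It had 156, 149 and 167 CPM in FPC Advanced livers, against 255, 250, 270 and 246 CPM in FPC Control livers. In CDAHFD Advanced livers it had 168, 126 and 191 CPM, against 274, 276, 288 and 273 CPM in CDAHFD Control livers. The CDAHFD Advanced libraries spread more (162 ± 32.9 CPM, SD, n = 3) than the FPC ones (157 ± 9.03 CPM, n = 3), with no overlap with Control in either; the changes were -0.70 ± 0.09 (SE, adjusted p = 5e-07) and -0.78 ± 0.088 (adjusted p = 6.72e-08). Serpinc1 (antithrombin) fell by 0.59 and 0.34 and Serpinf2 (the plasmin inhibitor alpha-2-antiplasmin) by 0.51 and 0.41 in FPC and CDAHFD. Serpind1 (heparin cofactor II) fell by 0.17 in FPC, and was at -0.09 in CDAHFD (adjusted p = 0.141). Its FPC call is lost with cyclic loess scaling, scaling on all peaks, no limit on distance, and without FPC Advanced replicate 1 or FPC Control replicate 2 or 3. Proc, the gene for protein C, had sums within 0.07 of Control in both diets (-0.06 ± 0.059 and -0.07 ± 0.057, SE), which hid opposite changes of its peaks, given below.

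Among the 14 complement genes of the 35, the fall was largest at C8b. C8b encodes a subunit of the membrane attack complex. It had 50.6, 40.1 and 47.4 CPM in FPC Advanced livers, against 101, 86.9, 107 and 87.8 CPM in FPC Control livers. It had 48.2, 41.9 and 48.1 CPM in CDAHFD Advanced livers, against 93.5, 93.3, 97.1 and 112 CPM in CDAHFD Control livers. All Advanced libraries lay below all Control libraries of their diet, with the limit given above for F5. The changes were -1.06 ± 0.091 (SE, adjusted p = 9.8e-10) in FPC and -1.10 ± 0.087 (adjusted p = 2.02e-10) in CDAHFD, the largest fall of the 35 in CDAHFD. Its neighbour C8a fell by 0.59 and 0.30; the CDAHFD call is lost with cyclic loess scaling, scaling on all peaks, no limit on distance, and without CDAHFD Advanced replicate 1 or 3 or Control replicate 2 or 3. Of the other terminal components, Hc (C5) and C6 fell by 0.30 and 0.47 in FPC and were at -0.02 and -0.22 in CDAHFD (adjusted p = 0.901 and 0.212), and C9 was not called in either diet. The FPC call of Hc is lost with scaling on all peaks, promoter peaks alone, no limit on distance and without FPC Advanced replicate 2 or Control replicate 3 or 4, and that of C6 without FPC Advanced replicate 2 or Control replicate 1 or 3.

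Both complement inhibitors fell in both diets, against 23.1% of all genes. Cfi encodes factor I, which cleaves C3b and C4b. It had 103, 110 and 111 CPM in FPC Advanced livers, against 166, 159, 192 and 171 CPM in FPC Control livers. In CDAHFD Advanced livers it had 123, 117 and 121 CPM, against 154, 142, 133 and 131 CPM in CDAHFD Control livers. The gap was wide in FPC (-0.68 ± 0.072, SE, adjusted p = 2.42e-08) and narrow in CDAHFD (-0.22 ± 0.069, adjusted p = 0.00929), where the call is lost with cyclic loess scaling (-0.17), with scaling on all peaks (-0.15), with peaks within 10 kb (-0.15) and with promoter peaks alone. Serping1 (C1 inhibitor) fell by 0.84 and 0.51.

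The 7 activators of complement had the smallest median change of the groups (-0.22 in FPC and -0.14 in CDAHFD). Of them 4 (57.1%) were lower in FPC and 2 (28.6%) in CDAHFD, against 30.5% and 30% of all genes. In CDAHFD their share was thus no higher than that of all genes. Masp1 and Masp2, the proteases bound to mannose-binding lectin, fell by 0.44 and 0.59 in FPC, and Masp1 by 0.36 in CDAHFD. Mbl2, the lectin itself, fell by 0.43 in FPC and was at 0.08 in CDAHFD (adjusted p = 0.667); the FPC call is lost with scaling on all peaks, promoter peaks alone and without FPC Advanced replicate 3 or Control replicate 1. C4b fell by 0.22 and 0.21 in FPC and CDAHFD, but C4b and C4a are near-identical copies, and reads could be split between them. The C4b call is lost in both diets with cyclic loess scaling, scaling on all peaks and no limit on distance, in CDAHFD also with peaks within 10 kb, and without FPC Advanced replicate 2 or FPC Control replicate 1, 3 or 4, or without CDAHFD Advanced replicate 1 or 3 or CDAHFD Control replicate 1 or 3. C3, the central component, had 231, 255 and 241 CPM in FPC Advanced livers, against 285, 219, 276 and 214 CPM in FPC Control livers. The groups overlapped, as they did for C2, a subunit of the classical convertase. Cfb, its counterpart in the alternative pathway, had 84, 88.8 and 90.9 CPM in FPC Advanced livers, against 94.8, 97.3, 98.6 and 98.9 CPM in FPC Control livers, which do not overlap but did not pass the test (-0.15 ± 0.079, SE, adjusted p = 0.106). C3 and Cfb, given by library after their values were seen, were at 0.21 and 0.05 in CDAHFD Advanced livers (adjusted p = 0.106 and 0.583). There C3 was called higher in the refits named above.

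The 4 plasma carriers fell in 3 cases in FPC and in 2 in CDAHFD, against 30.5% and 30% of all genes. Ttr encodes transthyretin. It had 152, 143 and 154 CPM in FPC Advanced livers, against 173, 174, 174 and 175 CPM in FPC Control livers. It had 129, 129 and 133 CPM in CDAHFD Advanced livers, against 179, 168, 187 and 202 CPM in CDAHFD Control livers. It fell in both, by 0.21 in FPC (SE 0.056, adjusted p = 0.00212) and by 0.50 in CDAHFD (SE 0.055, adjusted p = 4.8e-08); the FPC call is lost with cyclic loess scaling (-0.09) and with scaling on all peaks (-0.12). Vtn (vitronectin) fell by 0.23 and 0.28, Ahsg (fetuin-A) by 0.23 in FPC alone, and Trf (transferrin) was at 0.01 and -0.04. The FPC call of Vtn is lost with scaling on all peaks, no limit on distance and without FPC Advanced replicate 1 or 2 or Control replicate 1, 3 or 4, and that of Ahsg with cyclic loess scaling, scaling on all peaks and without FPC Advanced replicate 3 or Control replicate 3 or 4.

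**Figure D2:**
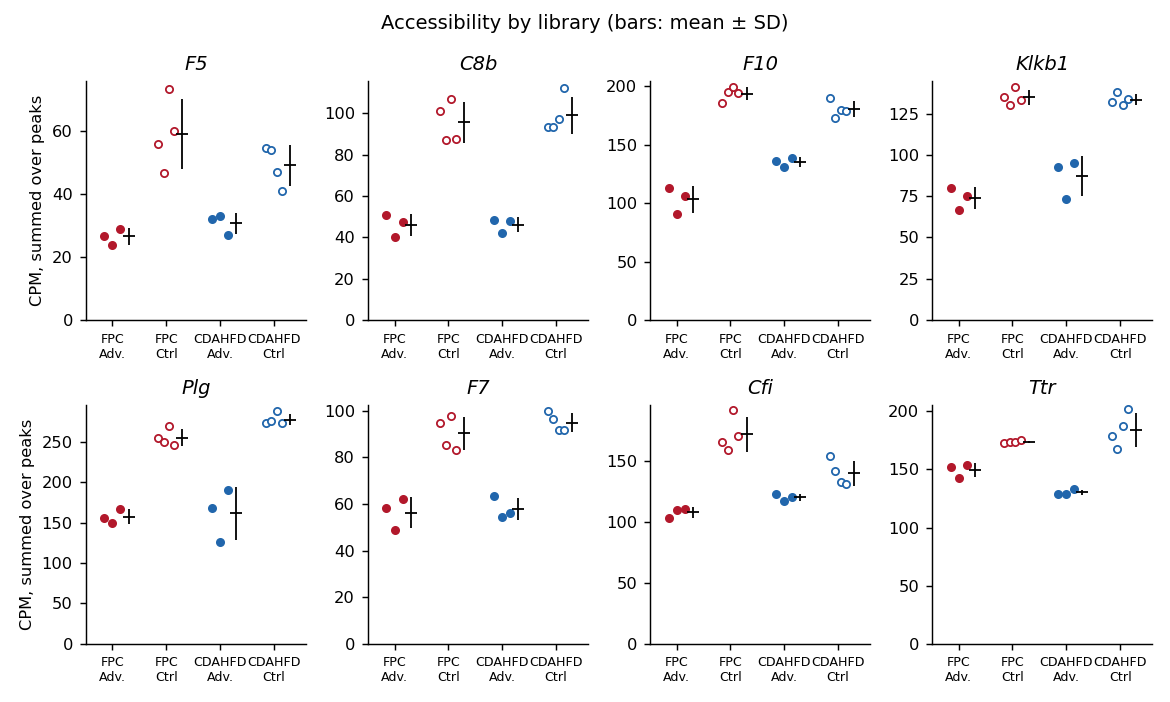
CPM summed over the peaks of a gene in each library of the Advanced (filled) and Control (open) groups, for F5, C8b, F10, Klkb1, Plg, F7, Cfi and Ttr; FPC is red and CDAHFD blue, and bars are the mean and SD. For each of the 8 genes the Advanced libraries lie below all Control libraries of the same diet. The genes were picked for large called falls or a called diet difference in these data. The share of all genes separated in this way was not computed.

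The 2 diets were compared directly by subtracting the CDAHFD change from the FPC change. For the Advanced groups 2 genes, Cfi (-0.46 ± 0.099, SE, adjusted p = 0.00895) and F10 (-0.50 ± 0.091, adjusted p = 0.00281), fell further in FPC, against 2.81% of all genes. Only Ttr went the other way, 0.28 ± 0.079 (adjusted p = 0.0375), against 1.99%. Ttr lost that call when any of 10 libraries was left out (0.24 to 0.32 over all such fits), while Cfi and F10 kept theirs in every fit without 1 library. For the Mild groups Cfi alone was lower (-0.58 ± 0.092, SE, adjusted p = 0.000604, against 2.78% of all genes), and none was higher (2.5%; 1 at an unadjusted p under 0.05, none with DESeq2). Among all genes above the median Control level, 4.26% were lower and 1.61% higher for the Advanced groups, and 3.56% were lower for the Mild groups. For the other 32 genes the difference of the Advanced changes did not pass the test, which does not show that the diets act alike on them.

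Many of these genes were also lower in Mild livers, whose comparison shares its Control libraries with that of the Advanced ones. In FPC Mild livers 21 of 35 genes were lower and none higher, against 20.6% and 19.7% of all genes; none was higher at an unadjusted p under 0.05 or with DESeq2. In CDAHFD Mild livers 15 were lower and 1 higher, against 23.3% and 22.1%. All 8 coagulation factors were lower in FPC Mild livers and 5 of 8 (F2, F5, F7, F10 and Fgg) in CDAHFD Mild livers. F5 averaged 30.9 ± 3.14 CPM in FPC Mild and 58.9 ± 11.1 CPM in FPC Control livers (SD, n = 4 each), and 26.5 ± 2.57 CPM (n = 3) in FPC Advanced livers. C8b averaged 63.7 ± 2.97 CPM in CDAHFD Mild and 99.0 ± 9.02 CPM in CDAHFD Control livers (n = 4 each), and 46.1 ± 3.57 CPM (n = 3) in CDAHFD Advanced livers. Cfi had the same level in both FPC diet groups, 108 ± 4.26 CPM in Advanced (n = 3) and 107 ± 6.83 CPM in Mild livers (n = 4), a change of 0.02 ± 0.072 (SE, adjusted p = 0.869). The gene higher in CDAHFD Mild livers was C3, at 0.26 ± 0.105 (adjusted p = 0.044); its 255, 255, 271 and 249 CPM stood against 197, 267, 214 and 182 CPM in CDAHFD Control livers, which overlap, and the call is lost without any 1 of 7 of the 8 libraries.

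Advanced and Mild livers differed directly at 14 genes lower and 1 higher in FPC, against 16.1% and 15.4% of all genes, and at 6 lower and 1 higher in CDAHFD, against 8.05% and 9.33%. The count of 14 is 5 without FPC Advanced replicate 2 and 9 without FPC Mild replicate 3, and the 6 is 3 without CDAHFD Advanced replicate 2 and 3 without CDAHFD Mild replicate 1. C8b, Serping1, Klkb1 and Plg were called lower in Advanced than in Mild livers of both diets, Plg by 0.33 in FPC and 0.46 in CDAHFD. Serping1 kept both calls in all 19 other fits. Klkb1 kept its call in FPC, but in CDAHFD lost it in 13 of 19 fits: with median-ratio or cyclic loess scaling, scaling on all peaks, the stricter filter, each other choice of distance, only the libraries of the diet, and without CDAHFD Advanced replicate 2 or any 1 of the 4 CDAHFD Mild libraries. The C8b calls are lost in both diets with peaks within 10 kb and promoter peaks alone, and in FPC without Advanced replicate 2, as is the FPC call of Plg. Scaled on all peaks, the share of all calls that were higher moved to 59.7% for FPC Mild against Control (48.9% otherwise), to 61.8% and 64.1% for Advanced against Mild in FPC and CDAHFD (49% and 53.7%), and to 56.8% for the diet difference of the Advanced change (41.4%). Serpind1 was higher in Advanced than in Mild livers of both, by 0.16 in each (adjusted p = 0.0322 and 0.0371), with 70.4, 74.8 and 74.2 CPM in FPC Advanced against 64.1, 61.7, 68.9 and 67.1 CPM in FPC Mild livers (given by library after its values were seen). The call is lost with DESeq2 and with only the libraries of the diet in both diets, without FPC Advanced replicate 2 or 3 or FPC Mild replicate 1 or 2, and without CDAHFD Advanced replicate 2 or 3 or CDAHFD Mild replicate 2, 3 or 4. Against Control it was lower in FPC Advanced and in Mild livers of both diets, and was not called in CDAHFD Advanced livers. Its sign between Advanced and Mild livers turned when peaks beyond 10 kb were left out (-0.13 in FPC, -0.05 in CDAHFD), a setting that drops a peak at -23716 bp from its start, described below.

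**Figure D3:**
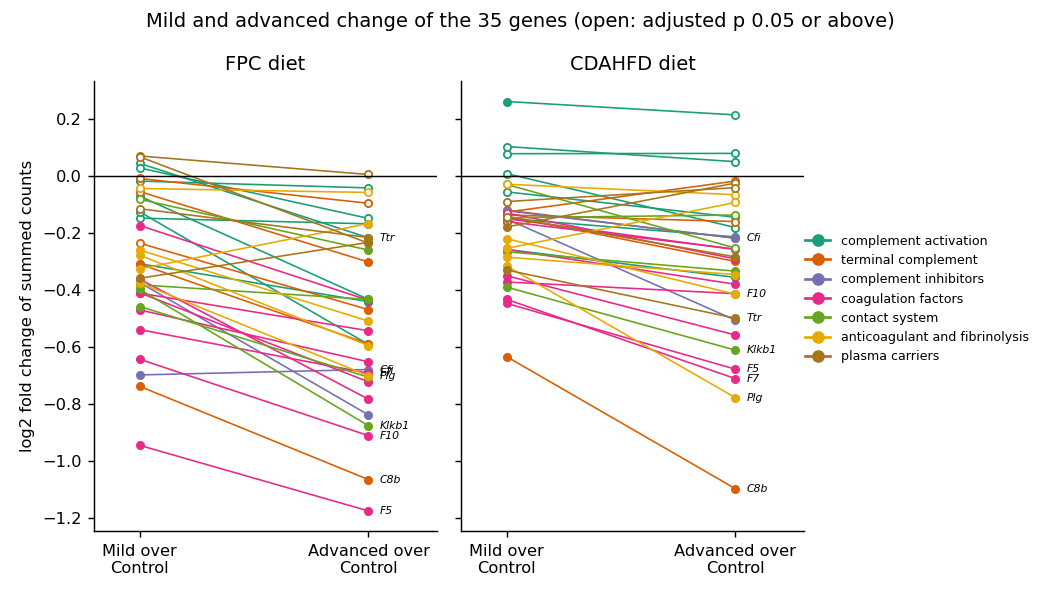
Log2 fold change over Control for the 35 genes in Mild livers (left of each panel) and Advanced livers (right), joined by a line per gene and coloured by role; open points have an adjusted p of 0.05 or above. The lines of C8b and Plg run down to the Advanced livers in both diets, and that of Klkb1 does so with a call in CDAHFD that most other settings lose, while Cfi in FPC is level.

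Peak by peak, 129 of the 240 peaks were lower and 16 higher in FPC Advanced livers, against 28% lower and 27.6% higher of all peaks, and 106 were lower and 19 higher in CDAHFD Advanced livers, against 28.8% and 26.7%. Of the 240, 91 peaks were lower in both diets, against 21.5% of all peaks, 11 were higher in both, against 20.7%, and none had opposite calls, against 0.243%. Of neighbouring peaks 11 overlap, so a few share reads. More than 2-fold falls were called at 37 of the 240 peaks in FPC and 27 in CDAHFD, against 9.67% and 9.35% of all peaks, and more than 2-fold rises at 3 and 7, against 11.4% and 12.1%. The intron 2 peak of F10 (chr8:13038391-13038591, 1183 bp after the start) had 4.05, 4.56 and 4.14 CPM in FPC Advanced livers, against 19.4, 15.9, 24.5 and 15.7 CPM in FPC Control livers, a log2 change of -2.16 ± 0.217 (SE, adjusted p = 6.55e-09). In CDAHFD it changed by -1.46 ± 0.197 (adjusted p = 5.43e-07), with 7.05, 4.17 and 6.54 CPM in Advanced against 17.5, 20, 15.9 and 12.9 CPM in Control livers. It was the largest fall in both diets among called peaks of above-median level.

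Several other falls lay at single sites of genes named above. The F7 peak centred at -363 bp from the start (chr8:13025571-13025771) changed by -1.227 in FPC and -1.237 in CDAHFD. The C8b peak in intron 2 (chr4:104779564-104779764) had 14.2, 14.4 and 14.6 CPM in FPC Advanced livers, against 33.9, 29.7, 34.3 and 35.2 CPM in FPC Control livers, and fell by 1.21 and 1.31. The first-intron peak of Cfi (chr3:129847668-129847868) fell by 1.55 in FPC and 0.69 in CDAHFD, and the intron 3 peak of Plg (chr17:12387941-12388141) by 0.58 and 1.21. The fibrinogen peaks near Fgb (chr3:83040651-83040851) and Fgg (chr3:83004786-83004986) fell by 1.53 and 1.29 in FPC and by 0.86 and 1.01 in CDAHFD, both with Control libraries that spread more than 2-fold and, in CDAHFD, overlap the Advanced ones. A peak at -9758 bp from the start of Klkb1 (chr8:45304493-45304693), chosen after its values were seen, had 3.2, 1.85 and 2.07 CPM in FPC Advanced livers, against 12.6, 15.1, 13.8 and 14.9 CPM in FPC Control livers. It fell by 2.57 in FPC and 2.63 in CDAHFD.

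In the stretches printed above, the F5 peak centred at -288 bp changed by -1.235 in FPC and -0.707 in CDAHFD, while the one at -9 bp was at -0.35 and 0.11 and was not called (adjusted p = 0.059 and 0.528). The F11 peak over its start changed by -1.247 and -1.007. The peaks in the C8b and Klkb1 stretches fell by 0.67 and 0.69 in FPC and by 0.64 and 0.53 in CDAHFD, and the one in the F7 stretch by 0.47 and 0.56. The F10 stretch fell by 1.00 in FPC and was at -0.42 in CDAHFD (adjusted p = 0.071). Both C3 peaks were level in FPC (0.07 and 0.02), and in CDAHFD the one nearer the start was higher by 0.24 (adjusted p = 0.019).

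The 11 peaks higher in both diets stood at genes whose sums did not rise. A peak at -23716 bp from the start of Serpind1, in an intron of Pi4ka (chr16:17307555-17307755), rose by 2.44 ± 0.483 (SE, adjusted p = 0.000132) in FPC and 2.02 ± 0.369 (adjusted p = 4.39e-05) in CDAHFD. It and the next peaks of Trf and Mbl2 were named after their values were seen. All of them are below the median level of all peaks. A peak at -13354 bp from the start of Trf had 8.77, 8.83 and 7.64 CPM in FPC Advanced livers, against 3.39, 2.65, 4.03 and 2.28 CPM in FPC Control livers, and rose by 1.40 and 1.58. A peak at -9810 bp from the start of Mbl2 rose by 1.303 and 2.092. A pair of peaks lies at -11678 and -10282 bp from the start of Ahsg, the first at the end of Dnajb11 and the second in an intron of the noncoding Gm30505, and their assignment to Ahsg is the authors'. The first (chr16:22880237-22880437) had 26.3, 25 and 26.9 CPM in CDAHFD Advanced livers, against 11.9, 10.5, 14.5 and 9.17 CPM in CDAHFD Control livers, and rose by 0.82 in FPC and 1.17 in CDAHFD; the second rose by 0.97 and 0.87. The peak at -189 bp from the start of Cfb rose by 0.50 and 0.64, an intron 2 peak of Masp1 (chr16:23497637-23497837) by 0.87 and 0.69, and the peak at -8131 bp from the start of Proc by 0.53 and 0.58.

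**Figure D4:**
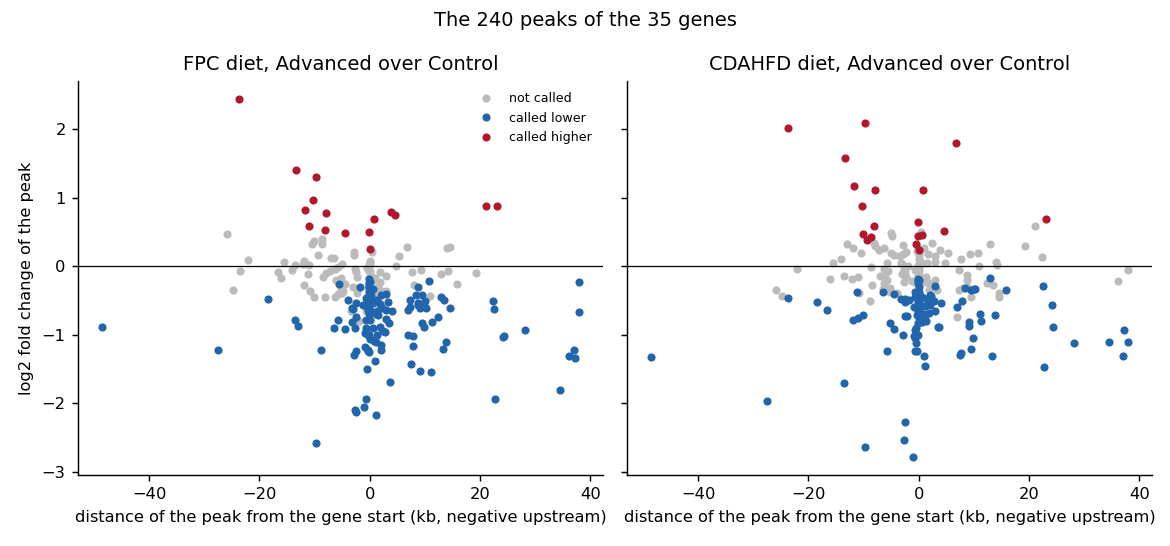
Log2 fold change of each of the 240 peaks, Advanced over Control, against its distance from the gene start in kb; blue peaks were called lower, red higher and grey neither. Falls of more than 2-fold lie on both sides of the start, and the rise of 2.44 in FPC is the Serpind1 peak at -23716 bp. That peak is below the median level of all peaks.

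Promoter peaks (within 1 kb of the start) and distal peaks (beyond 1 kb) were then summed apart, both on the scale of the 50 kb sums. In FPC Advanced livers promoter sums were lower for 28 and higher for none of 34 genes, against 18.3% and 35.9% of all genes with promoter peaks; none was higher at an unadjusted p under 0.05. Distal sums were lower for 22 and higher for 1 of 33, against 41.9% and 22.9%. In CDAHFD Advanced livers promoter sums were lower for 21 and higher for 1 of 34, against 19.9% and 30.4%, and distal sums lower for 18 and higher for 1 of 33, against 39.3% and 25%. The promoters of all genes thus had a median change of 0.12 in FPC and 0.04 in CDAHFD, and the distal sums -0.20 and -0.14.

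The promoter change minus the distal change was tested with limma in the 32 genes that had both. Over all 7104 genes with both its median was 0.25 in FPC and 0.15 in CDAHFD, and over the 32 it was -0.02 and -0.05. In FPC 7 genes were higher and 9 lower, against 41.8% and 14.9% of all genes, and in CDAHFD 6 were higher and 9 lower, against 34.6% and 19.7%. F10 and F5 had the largest distal falls in excess of their promoter falls. The promoter sum of F10 fell by 0.80 and its distal sum by 2.26 in FPC, a difference of 1.34 ± 0.218 (SE, adjusted p = 3.13e-05), but its distal sum is a single peak, the intron 2 peak above, which lies at 1183 bp and so just beyond the 1 kb limit. For F5 the difference was 1.12 in FPC and 1.91 in CDAHFD, but its distal sum is a pair of overlapping peaks in the 3′ UTR of Selp, the gene next to it, neither above 10.4 CPM in any library. In the other direction, the promoter of F11 fell by 1.31 and its distal sum by 0.64 in FPC, a difference of -0.66 ± 0.136 (adjusted p = 0.000375). F7 differed by -0.52 in FPC and -0.46 in CDAHFD.

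Splitting the sums also separated changes that cancelled in the total. Proc, level as a sum, had a lower promoter and a higher distal sum in both diets: -0.34 ± 0.067 and 0.19 ± 0.084 in FPC, and -0.34 ± 0.06 and 0.18 ± 0.081 in CDAHFD (SE). The distal calls of Proc in edgeR were near the threshold (adjusted p = 0.0463 in FPC and 0.0478 in CDAHFD). Distal sums were not refitted with libraries left out. Ahsg had a promoter fall of 0.52 and 0.51 in the 2 diets and distal values of -0.07 and 0.20, which were not called. Serpind1 likewise had promoter falls of 0.46 and 0.44 beside distal values of -0.05 and 0.07. For Cfi the promoter fell by 0.30 in FPC and was higher by 0.22 in CDAHFD (adjusted p = 0.0287), while the distal sum fell by 1.03 and 0.59; with promoter sums scaled on themselves the CDAHFD value is 0.17 and is not called. The promoter and distal values by gene are plotted below.

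**Figure D5:**
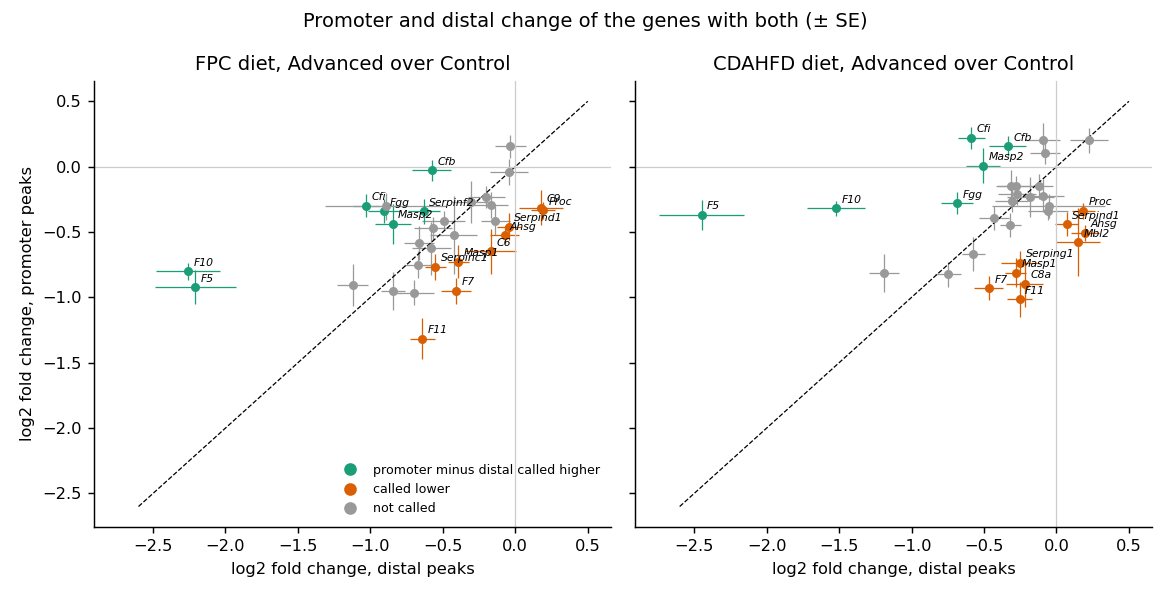
Log2 fold change of the promoter sum (vertical) against that of the distal sum (horizontal), Advanced over Control, for the 32 genes with both, with standard errors; the dashed line marks equal change, and green and orange mark genes whose promoter minus distal change was called higher and lower. F10 and F5 lie far to the left of it, and Proc, Ahsg and Serpind1 below it near a distal change of zero, in both diets.

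Of 70 other complement, coagulation and plasma protein genes, 57 had peaks within 50 kb. In FPC Advanced livers 35 of these were lower and 5 higher, against 30.5% and 30.7% of all genes, and in CDAHFD 30 were lower and 6 higher, against 30% and 28.5%. Plaur and Plat were among those higher in both diets. Plaur, the urokinase receptor, had 23.6 ± 5.76 CPM in FPC Advanced and 4.5 ± 1.31 CPM in FPC Control livers (SD, n = 3 and 4) and rose by 2.34 ± 0.231 (SE, adjusted p = 8.78e-09), and by 3.74 ± 0.243 in CDAHFD. Plat, the tissue plasminogen activator that converts plasminogen, rose by 2.14 and 2.48. Both genes had low Control levels, beside a median of 43.2 CPM over all genes. Plat had 2.56 to 3.46 CPM in FPC Control and 1.42 to 2.41 CPM in CDAHFD Control livers. Plaur had 1.42 to 2.3 CPM in CDAHFD Control livers. Among those lower in both were C4a (by 1.72 and 1.57, with the same doubt as C4b), Fcna, C8g, the protease inhibitor Tfpi2, and the plasma proteins Gc, Itih2 and Serpina6; Gc, the vitamin D-binding protein, fell by 0.61 and 0.46.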

How the data were processed

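ATAC-seq libraries of 22 mice in 6 groups were used. The build is mm10, and the tools HOMER, SAMtools, DESeq2 and BWA (0.7.5a-r405) are listed, with no roles, per the submitters' processing notes. The deposited un-normalized table, made by the authors, holds expected counts per 200 bp peak in steps of 0.5 (47.8% of values are not whole), with no stated reason; nearest gene, distance and annotation are its own columns. The authors' normalized table was not used.

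Counts were rounded per peak (ties to the even number) and summed per gene over peaks within 50 kb. CPM is on totals scaled by TMM (factors 0.975 to 1.03). edgeR 4.0.16 (R 4.3.3) fitted 1 quasi-likelihood model of the 6 groups to all 15686 genes, and another to all 68827 peaks, after filterByExpr, which removed none; p-values were Benjamini-Hochberg adjusted over all of them at a threshold of 0.05. limma 3.58.1 with a trend tested promoter minus distal log2 CPM (prior count 2). The tests were tried on simulated data. DESeq2 1.42.0, other scalings, filters, distances and left-out libraries were alternatives; 2 of them, scaling on all peaks and rounding after summing, were chosen after seeing the data.

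Each library is a mouse, and p-values measure the spread between mice. No batch is labelled. The genes and lists were chosen with earlier results of these data known. Values by library were given for the 4 called genes with the largest rise and fall in each Advanced comparison and those called in the diet difference, and peaks likewise among called peaks of above-median level, 1 per gene and direction. Exceptions are marked as chosen after their values were seen.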

Additional observations from a re-analysis of the deposited data

Results flagged for a closer look

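Only differences between the diets met the criteria for a closer look. The change in FPC Advanced livers minus that in CDAHFD Advanced livers was -0.461 on the log2 scale for Cfi, -0.498 for F10 and 0.283 for Ttr, and for Cfi in Mild livers it was -0.576. Cfi and F10 fell further in FPC and Ttr in CDAHFD livers, each tested in the same edgeR model. Ttr lost its call with median-ratio scaling, with peaks within 10 kb and in most fits without 1 library. For the Advanced change 5.71% of the 35 genes were lower and 2.86% higher, against 2.81% and 1.99% of all genes. For the Mild change 2.86% were lower, against 2.78% of all genes. Among all genes above the median Control level, 4.26% were lower and 1.61% higher for the Advanced change. For the Mild change 3.56% of those were lower. The shares of the 35 genes are thus near those of genes with like levels. None of 32 groups of 4 libraries of F5, C8b, F10, Klkb1, Plg, F7, Cfi and Ttr held an outlying library, where chance gives about 1 in 20 groups. These groups reuse the same libraries from gene to gene and are not independent. The Advanced groups, of 3 libraries each, were not tested for outliers. The genes tested were picked for large called falls or a called diet difference. Others, such as Fgb with its spread of Control values, were not tested. With 4 libraries in a group such a test can also miss an outlying one.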

How the results depend on the processing

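No paired analysis was possible because every mouse gave 1 library and replicate numbers only name libraries. Of 228 counts under other settings, 207 stayed within 1.5 times the reported one. These counts, and the 461 values given below, include the setting without a filter. It repeats the main fit, since the filter removed nothing. The number of genes called lower against Control was among these under every setting, and the exceptions, whose cause was not tested, were counts of 0 to 2 genes and 1 count of peaks. Genes higher in FPC Advanced than Mild livers numbered 0 with DESeq2, peaks within 10 kb, promoter peaks alone and only the libraries of the diet, and 2 with cyclic loess scaling. Those higher in CDAHFD Advanced than Mild livers numbered 0 with DESeq2, peaks within 10 kb, promoter peaks alone and only the libraries of the diet. Higher than Control in CDAHFD Advanced livers was 1 gene (C3) with cyclic loess scaling, only the libraries of the diet and scaling on all peaks. In CDAHFD Mild livers 2 were higher with promoter peaks alone. In the diet difference of the Advanced change 0 were higher with median-ratio scaling, peaks within 10 kb and promoter peaks alone. In that of the Mild change 2 were lower with DESeq2, promoter peaks alone and no limit on distance, and 1 was higher with cyclic loess scaling. Peaks lower in CDAHFD Advanced livers numbered 67 under the stricter filter, which tests fewer peaks. Of 461 values of single genes, 418 kept their direction and side of the threshold, 38 lost the call and 5 turned: Serpind1 between Advanced and Mild livers was -0.134 (FPC) and -0.049 (CDAHFD) with peaks within 10 kb, and -0.242 and -0.13 with promoter peaks alone, and Cfi in CDAHFD Advanced livers was 0.167 with promoter peaks alone, which are scaled on promoter sums.

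With 1 library left out, genes lower than Control numbered 22 to 28 in FPC Advanced, 17 to 20 in FPC Mild, 17 to 22 in CDAHFD Advanced and 12 to 17 in CDAHFD Mild livers. Genes lower in Advanced than Mild livers numbered 5 to 15 in FPC and 3 to 6 in CDAHFD, and those higher 0 to 1 in each. Genes higher than Control numbered 0 to 1 in CDAHFD Advanced and 0 to 1 in CDAHFD Mild livers. In the diet difference, 0 to 1 were higher for the Advanced change, and 0 to 1 higher and 1 to 2 lower for the Mild change. Groups of 3 and 4 libraries limit what small changes can be called.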
